A study of Mus musculus with 8 samples.

Results

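Acetylation of histone H3 at lysine 27 (H3K27ac) was compared with acetylation at lysine 9 (H3K9ac) in small intestinal crypts of fed mice that received no tetracycline. Every peak of the 4 lists of this condition, 2 per mark, was taken on chromosomes 1 to 19, X and Y of GRCm38, and peaks that overlapped by at least 1 bp were merged into regions. This gave 83565 regions, against 348617 when the 16 lists of the whole series were merged. A region carried both marks when it held a peak of all 4 lists. It carried H3K27ac only or H3K9ac only when both lists of that mark had a peak there and neither list of the other mark did. By this rule 9280 regions carried both marks (11.1% of all regions), 10291 carried H3K27ac only (12.3%) and 491 carried H3K9ac only (0.588%). Of the remainder, 13389 had at least 1 list of each mark without completing the set, and 50114 were seen in 1 list.

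The series profiled 8 samples with CUT&Tag, in which an antibody brings a transposase to a chromatin mark so that the tagged fragments can be sequenced. All mice were 9-week-old C57BL/6J males. The condition described here is Fed_(-Tetra), fed mice given no tetracycline, with 1 H3K27ac and 1 H3K9ac sample. The other 3 conditions were Fast_(-Tetra), a 24 h fast without tetracycline, Fed_(+Tetra), fed mice given tetracycline for 21 days, and Fast_(+Tetra), with both treatments. They served here only as lists that played no part in forming the classes. Crypt cells were loosened with EDTA and separated with trypsin, and the labels describe them as epithelial. Read totals are not part of the lists, and their depth is therefore unknown. The labels name mouse IgG for the H3K27ac samples and rabbit IgG for the H3K9ac samples, so the mark and the antibodies used for it cannot be told apart. The labels do not say whether lists 1 and 2 of a sample came from separate mice, so p-values measure the spread between lists, which may be technical.

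Acetyl groups on the tails of histone H3 loosen nucleosomes and are read by bromodomain proteins. H3K27ac is written mainly by EP300 and CREBBP and is found at active promoters and active enhancers, the distant elements that raise transcription of a gene in particular cell types. H3K9ac is written mainly by KAT2A and KAT2B, the enzymes of the SAGA and ATAC complexes, and is best known from active promoters. Crypts hold the stem cells, dividing progenitors and Paneth cells at the base of the villi, together with cells that have begun to mature towards the absorptive enterocyte. Because whole crypts were used, a mark in few cells and a weak mark in many cells cannot be told apart.

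The sequences that follow are promoters from RefSeq on GRCm38.p6, each 300 bases long, from 250 before to 50 after a start site, written 5′ to 3′ on the gene's strand with every CG dinucleotide in capitals. They are shown because the density of CG differed between the classes of start sites. Leng8 (chr7:4136806-4137105, + strand) and Slc25a3 (chr10:91123918-91124217, - strand) lead the genes with both marks.
Leng8: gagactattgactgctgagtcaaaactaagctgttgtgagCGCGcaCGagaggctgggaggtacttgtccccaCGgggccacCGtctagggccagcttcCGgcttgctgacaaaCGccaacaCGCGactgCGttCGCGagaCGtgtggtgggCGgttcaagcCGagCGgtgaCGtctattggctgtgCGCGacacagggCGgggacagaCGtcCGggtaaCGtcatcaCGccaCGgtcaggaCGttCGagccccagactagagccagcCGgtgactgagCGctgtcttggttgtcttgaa
Slc25a3: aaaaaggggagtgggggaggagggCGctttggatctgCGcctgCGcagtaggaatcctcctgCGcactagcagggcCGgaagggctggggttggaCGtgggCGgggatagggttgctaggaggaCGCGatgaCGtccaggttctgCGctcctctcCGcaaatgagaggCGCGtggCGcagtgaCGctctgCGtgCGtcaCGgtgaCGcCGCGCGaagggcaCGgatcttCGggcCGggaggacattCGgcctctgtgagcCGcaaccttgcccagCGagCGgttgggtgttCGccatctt
The start sites of Ugt1a9 (chr1:88070529-88070828, + strand) and Celf3 (chr3:94478045-94478344, + strand) carried H3K27ac only, as did those of Atoh1 (chr6:64728875-64729174, + strand) and E2f1 (chr2:154569377-154569676, - strand), which show how much CG content varied within this class. These 4 were chosen after their values were seen, and the start shown for E2f1 lies inside the annotated gene, downstream of its outer end.
Ugt1a9: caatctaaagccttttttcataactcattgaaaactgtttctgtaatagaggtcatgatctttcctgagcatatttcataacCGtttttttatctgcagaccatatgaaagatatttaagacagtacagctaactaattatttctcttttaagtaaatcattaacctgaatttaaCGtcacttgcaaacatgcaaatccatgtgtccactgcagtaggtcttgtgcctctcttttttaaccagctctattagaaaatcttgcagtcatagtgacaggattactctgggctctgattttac
Celf3: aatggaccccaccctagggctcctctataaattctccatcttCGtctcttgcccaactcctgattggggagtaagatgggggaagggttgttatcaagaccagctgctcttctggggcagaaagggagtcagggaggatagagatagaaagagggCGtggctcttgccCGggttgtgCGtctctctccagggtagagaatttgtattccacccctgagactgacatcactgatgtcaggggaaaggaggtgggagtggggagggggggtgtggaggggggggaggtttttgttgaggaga
Atoh1: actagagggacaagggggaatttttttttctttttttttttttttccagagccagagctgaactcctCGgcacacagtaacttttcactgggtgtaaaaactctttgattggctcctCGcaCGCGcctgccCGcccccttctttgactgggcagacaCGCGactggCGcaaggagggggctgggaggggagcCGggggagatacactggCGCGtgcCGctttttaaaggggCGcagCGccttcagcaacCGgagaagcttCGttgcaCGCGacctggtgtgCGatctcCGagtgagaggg
E2f1: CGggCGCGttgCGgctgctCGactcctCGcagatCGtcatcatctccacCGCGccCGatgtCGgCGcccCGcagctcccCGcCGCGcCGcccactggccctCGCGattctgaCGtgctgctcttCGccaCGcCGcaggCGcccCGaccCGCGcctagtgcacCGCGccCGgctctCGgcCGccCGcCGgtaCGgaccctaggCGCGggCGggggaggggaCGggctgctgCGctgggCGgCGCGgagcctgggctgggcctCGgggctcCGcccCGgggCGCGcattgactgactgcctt
Nkapl (chr13:21468452-21468751, - strand) and Ext2 (chr2:93822519-93822818, - strand) carried H3K9ac only at their start sites.
Nkapl: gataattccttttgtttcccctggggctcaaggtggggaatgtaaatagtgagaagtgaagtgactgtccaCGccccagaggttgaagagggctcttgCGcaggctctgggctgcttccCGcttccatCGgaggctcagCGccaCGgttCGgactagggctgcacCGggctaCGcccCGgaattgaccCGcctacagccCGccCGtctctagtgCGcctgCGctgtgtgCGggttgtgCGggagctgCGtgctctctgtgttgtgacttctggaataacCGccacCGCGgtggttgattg
Ext2: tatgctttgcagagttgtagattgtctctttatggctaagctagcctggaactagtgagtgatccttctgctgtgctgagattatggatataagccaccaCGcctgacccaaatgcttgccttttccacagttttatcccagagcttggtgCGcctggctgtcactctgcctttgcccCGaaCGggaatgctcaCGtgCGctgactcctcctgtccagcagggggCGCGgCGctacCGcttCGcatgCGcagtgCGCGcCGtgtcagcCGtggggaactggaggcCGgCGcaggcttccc
Ldha (chr7:46845554-46845853, + strand) and BC016579 (chr16:45654069-45654368, - strand) lead the genes classed as H3K27ac only by their outer ends, yet the start sites printed here carried both marks.
Ldha: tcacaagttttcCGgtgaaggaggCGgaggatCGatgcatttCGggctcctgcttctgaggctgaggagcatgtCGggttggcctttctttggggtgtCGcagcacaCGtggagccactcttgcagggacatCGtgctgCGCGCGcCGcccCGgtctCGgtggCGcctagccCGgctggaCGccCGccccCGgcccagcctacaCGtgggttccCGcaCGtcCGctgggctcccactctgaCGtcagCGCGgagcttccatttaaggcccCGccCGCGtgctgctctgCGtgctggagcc
BC016579: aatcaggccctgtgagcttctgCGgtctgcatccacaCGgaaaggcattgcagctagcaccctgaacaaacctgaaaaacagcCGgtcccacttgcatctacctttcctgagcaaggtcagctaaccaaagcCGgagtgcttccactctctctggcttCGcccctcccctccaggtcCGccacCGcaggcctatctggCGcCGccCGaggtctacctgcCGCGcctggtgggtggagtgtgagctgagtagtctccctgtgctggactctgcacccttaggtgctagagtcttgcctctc
The number of CG dinucleotides in these windows was 29 for Leng8 and 31 for Slc25a3, 2 for Ugt1a9, 4 for Celf3, 20 for Atoh1 and 48 for E2f1. It was 21 for Nkapl, 18 for Ext2, 30 for Ldha and 12 for BC016579.

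The 4 lists differed in length before any comparison of marks. H3K27ac list 1 held 36340 peaks covering 37.7 Mb, and list 2 held 47565 peaks covering 53.2 Mb. H3K9ac list 1 held 17249 peaks covering 16.5 Mb, and list 2 held 51552 peaks covering 38.9 Mb. H3K9ac list 1 was the shortest and list 2 the longest of the 4, so the H3K9ac lists enclosed those of H3K27ac and the marks overlapped in peak number. The 4 lists marked between 9005 and 11312 of 21887 protein-coding genes. Median peak width was 879 and 908 bp for H3K27ac and 834 and 559 bp for H3K9ac, so both H3K27ac lists had the wider peaks.

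H3K27ac minus H3K9ac gave a mean log2 ratio of 0.48 for peak number (exact permutation p = 1, two-sided, 2 lists against 2, smallest possible p 0.33). The ratio was 0.82 for covered length (exact permutation p = 0.67) and 0.39 for median width (exact permutation p = 0.33). The share of peaks within 1 kb of a gene end was 27.4% and 24.1% for H3K27ac and 48.8% and 23.2% for H3K9ac. None of these differences in fed untreated crypts could pass 0.05. Without lists 1 the ratio of peak number was -0.12 and the difference in gene-end share was 0.87 points, each of the opposite sign to the value over both lists, -10.3 points for the share.

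The same measures were tested in the 12 lists of the other conditions, with mark labels exchanged within each condition. H3K27ac peaks were wider there by a log2 ratio of 0.82 (exact permutation p = 0.0093 over 216 arrangements, the smallest they can give, adjusted p = 0.019 over 6 tests), and wider in 6 of 6 pairs of the same condition and list number. Covered length was greater for H3K27ac by a log2 ratio of 0.56, again in 6 of 6 pairs, and did not pass adjustment (exact permutation p = 0.046, adjusted p = 0.069). The ratio of covered length was 0.73 for the upper 0.5 of each list by score (exact permutation p = 0.019), and 0.93 for 17249 top-scoring peaks per list and 0.95 for peaks of at least 500 bp (exact permutation p = 0.0093 for each, all 3 unadjusted). Peak number differed by -0.17 (exact permutation p = 0.63, adjusted p = 0.73) and gene-end share by 1.41 points (exact permutation p = 0.73, adjusted p = 0.73). Among peaks of at least 500 bp peak number and gene-end share turned, to a log2 ratio of 0.64 for peak number and -10.1 points for gene-end share (exact permutation p = 0.019 for each, unadjusted), and with 17249 top-scoring peaks per list the share was -1.19 points (exact permutation p = 0.71). The width ratio was 1.41 for the upper 0.5 by score, 1.38 for 17249 top-scoring peaks and 0.37 for peaks of at least 500 bp (exact permutation p = 0.0093, 0.0093 and 0.019, unadjusted). Over all peaks, width passed adjustment and covered length, peak number and gene-end share did not.

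Regions with both marks lay mostly at gene ends, and regions with H3K27ac only lay mostly away from gene ends, inside genes or between them. Of the 9280 regions with both marks, 6643 (71.6%, exact 95% binomial interval 70.7% to 72.5%, counting error only) lay within 1 kb of an end of a protein-coding gene. The share was 6.71% (6.24% to 7.22%) for H3K27ac only and 39.5% (35.2% to 44.0%) for H3K9ac only. Regions seen in 1 list were placed much like those with H3K27ac only, with 7.17% at gene ends. With 17249 top-scoring peaks per list the share was 74.9% for H3K9ac only and 74.3% for both marks, so H3K9ac only was no longer the lower of the pair. Regions inside a gene but away from its ends made up 19.8% of those with both marks, 50.5% of H3K27ac only and 37.9% of H3K9ac only. Regions between genes made up 8.64%, 42.8% and 22.6%. The median distance to the nearest gene end was 0 kb for both marks, 16.1 kb for H3K27ac only and 3.28 kb for H3K9ac only.

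**Figure D1:**
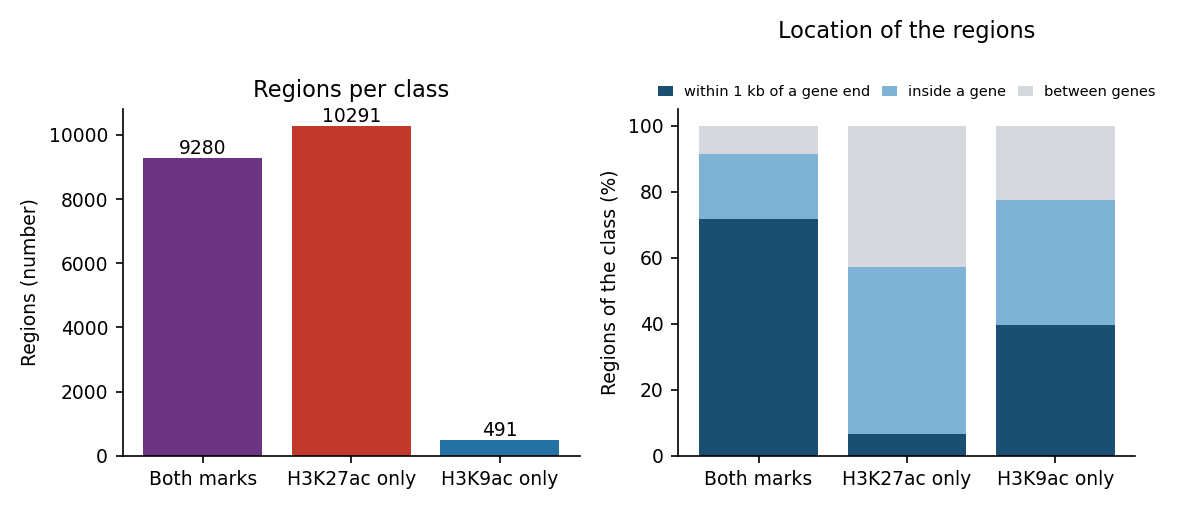
The left panel gives the number of regions in each class in fed untreated crypts, and the right panel the percentage of each class within 1 kb of a gene end, inside a gene or between genes. Regions with both marks lay mostly at gene ends (71.6%), whereas 6.71% of regions with H3K27ac only did.

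Read from each mark, the overlap was unequal. Of the 27902 regions with H3K27ac in both lists, 33.3% also had H3K9ac in both lists and 36.9% had it in neither. At gene ends these shares were 74.6% and 7.76%, inside genes 16.5% and 46.6%, and between genes 10.2% and 56.0%. Of the 10653 regions with H3K9ac in both lists, 87.1% also had H3K27ac in both and 4.61% in neither. This share depended little on place, being 89.3% at gene ends, 82.4% inside genes and 81.1% between genes.

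The counts of H3K9ac-only regions and genes depended on how long the lists were. When each list was reduced to its 17249 top-scoring peaks, 3738 regions had H3K27ac only and 1554 had H3K9ac only. Without lists 1, 1 list per mark was enough for a class, so the counts of both classes grew by construction and do not show an effect of list length. They were 25967 regions with H3K27ac only and 28914 with H3K9ac only, and 8.35% of the latter lay at gene ends. H3K9ac list 2 had 27590 regions that no other list shared, 33.0% of all regions.

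The H3K9ac lists also overlapped less with each other than the H3K27ac lists did. The Jaccard index, which divides the bases shared by 2 lists by the bases found in at least 1 of them, was 0.521 between the H3K27ac lists and 0.273 between the H3K9ac lists. Across marks it ran from 0.224 to 0.33, so the H3K9ac lists shared no more with each other than with some H3K27ac lists. Of the peaks of H3K9ac list 1, 67.0% and 72.2% met a peak of H3K27ac lists 1 and 2, and 67.7% met one of H3K9ac list 2. Of the peaks of H3K9ac list 2, 36.7% and 43.9% met a peak of H3K27ac lists 1 and 2, and 21.8% one of H3K9ac list 1.

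Stronger H3K27ac regions carried H3K9ac more often. The score of a peak is the authors' own value without a stated unit, and it was used here only to rank peaks within a list. When the regions with H3K27ac in both lists were ranked by score and divided into 10 groups of equal size, those at gene ends carried H3K9ac in both lists in 32.5% of the lowest group and 93.2% of the highest. Away from gene ends the shares were 2.39% and 48.7%. The weakest gene-end regions therefore came below the strongest distant ones, although within every score group gene ends had the higher share. In the highest group, 0.647% of 1390 gene-end regions and 8.57% of 1401 distant regions had no H3K9ac in either list.

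Ranking by H3K9ac score gave a different picture. The share with H3K27ac in both lists went from 51.6% in the lowest group to 99.9% in the highest at gene ends, and from 60.03% to 95% away from them, with 98.4% in the ninth. From the first to the fourth score group the share was higher away from gene ends, with 89.4% against 84.7% in the fourth. Over all scores it was higher at gene ends. From the fifth to the ninth score group the shares at gene ends and away from them differed by less than 3 points. The 139 distant regions of the highest group included 4.32% without H3K27ac in either list, against 0 of 127 in the ninth.

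**Figure D2:**
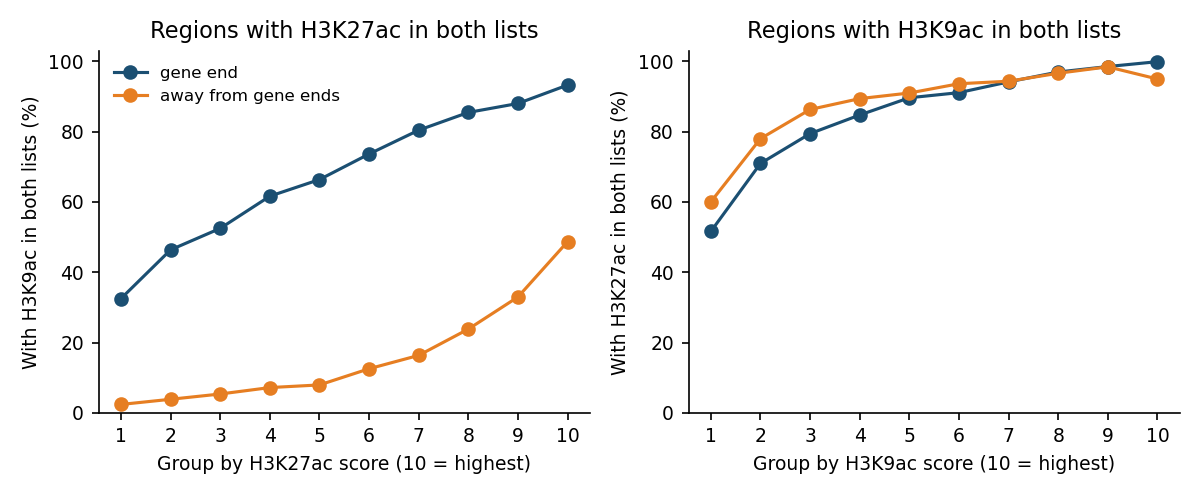
Regions with H3K27ac in both lists (left) or H3K9ac in both lists (right) were divided into 10 equal groups by score, and the vertical axis gives the percentage that carried the other mark in both of its lists, at gene ends and away from them. On the left the lines stay apart, ending at 93.2% and 48.7%. On the right distant regions start higher (60.03% against 51.6%), and the lines run together from the fifth to the ninth group.

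Where both marks were present, H3K27ac reached a little further. The median length of peaks per region was 1328 and 1613 bp in H3K27ac lists 1 and 2 and 1113 and 1480 bp in H3K9ac lists 1 and 2, so the order of the lists alternated between marks. The median log2 ratio of H3K27ac to H3K9ac length was 0.15 over the 9280 regions, 0.087 at gene ends and 0.40 away from them. Both H3K27ac lists exceeded both H3K9ac lists in 24.2% of regions at gene ends and 53.2% of those away. The reverse held in 9.35% and 3.49%. At distant regions H3K9ac peaks were therefore the narrower part of a shared region more often than at genes.

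The widest regions with both marks covered several peaks of each list. The widest, at chromosome 12 from 108688521 to 108703029 (14509 bp), lay over an end of Degs2, an enzyme of phytoceramide synthesis. Its peaks summed to 11980 and 14226 bp for H3K27ac and to 7867 and 9990 bp for H3K9ac. The next lay at Zbtb7b, a transcription factor gene (chromosome 3, 89382738 to 89397044), with 11525 and 14254 bp of H3K27ac and 8353 and 3818 bp of H3K9ac. The third lay at Tnrc18 (chromosome 5, 142811048 to 142824235), with 11882 and 13065 bp against 10476 and 11966 bp. At Degs2 and Zbtb7b both H3K27ac lists covered more than both H3K9ac lists, and at Tnrc18 H3K27ac list 1 fell just short of H3K9ac list 2.

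Around start sites the marks had nearly the same shape. Of 17492 genes with a start site in the reference, 6233 (35.6%) had both marks within 1 kb of it, 211 (1.21%) had H3K27ac only and 151 (0.863%) H3K9ac only. Over the 6233, the start base itself was covered in 96.6% and 98.3% of cases by H3K27ac lists 1 and 2 and in 94.0% and 97.5% by H3K9ac lists 1 and 2. At 1000 bp into the gene coverage was 30.3% and 42.6% for H3K27ac and 27.3% and 44.7% for H3K9ac. At 1000 bp before the start it was 17.9% and 26.9% against 11% and 20.9%. Every list leaned into the gene, and the lists of the same number resembled each other more than those of the same mark on the downstream side.

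**Figure D3:**
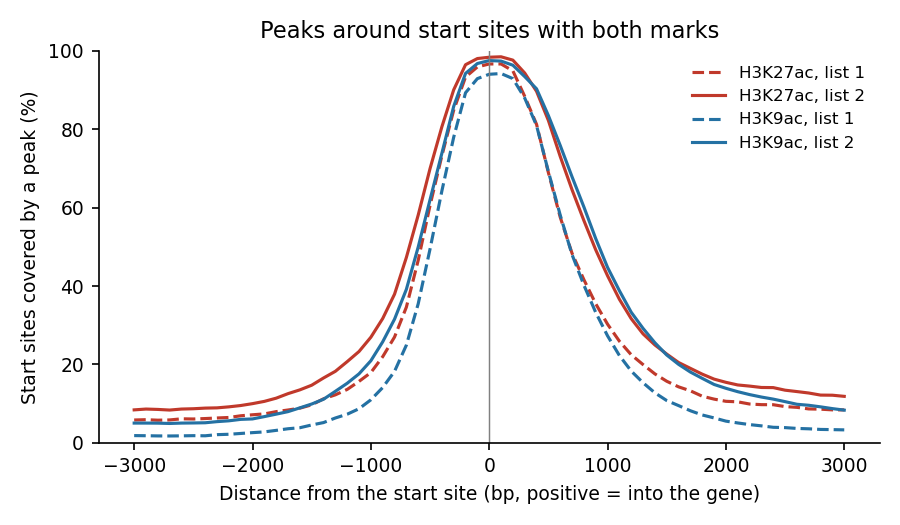
For the 6233 start sites with both marks, the percentage covered by a peak of each list is plotted against the distance from the start in bp, with positive values into the gene. All 4 lists peak at or within 100 bp of the start and fall more slowly into the gene than before it. The sites were chosen for a peak of all 4 lists within 1 kb, which favours coverage near the start.

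Lists that took no part in forming the classes showed how stable they were. Regions with both marks met a peak in 90.3% to 99.0% of cases in the 6 other H3K27ac lists and in 74.4% to 88.4% in the 6 other H3K9ac lists, and 3704 of them (39.9%) met a peak in all 12. Regions with H3K27ac only met an H3K27ac peak in 61.7% to 86.6% and an H3K9ac peak in 14.7% to 28.3%. The means were 74.7% and 19.8%, a difference of 54.9 points (exact permutation p = 0.0093, the smallest possible, adjusted p = 0.019, larger in 6 of 6 pairs). No H3K9ac list reached as high as the lowest H3K27ac list. With lists 2 alone the difference was 51.8 points, and with lists 1 alone 37.7 points.

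Regions with H3K9ac only recurred less. They met an H3K9ac peak in 26.7% to 45.4% of cases and an H3K27ac peak in 13.0% to 31.0%, ranges that overlapped. The means were 39.4% and 21.8%, and the difference of 17.6 points had the same direction in 6 of 6 pairs (exact permutation p = 0.0093, adjusted p = 0.019). Of the 491 regions, 101 (20.6%) met no peak in any of the 12 lists, against 185 (1.80%) of the regions with H3K27ac only and 0 of those with both marks. When regions were formed from lists 2 alone the difference was 0.92 points (exact permutation p = 0.75, smallest possible 0.25), and from lists 1 alone 3.20 points. With both lists kept, it was 38.9 points for the upper 0.5 of each list by score and 36.0 points for 17249 top-scoring peaks per list (exact permutation p = 0.0093 for each). The size of this difference thus depended on the peaks admitted and on the lists used, from 0.92 to 38.9 points over the alternatives run. The lowest values came from the settings in which 1 list per mark was enough for a class.

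**Figure D4:**
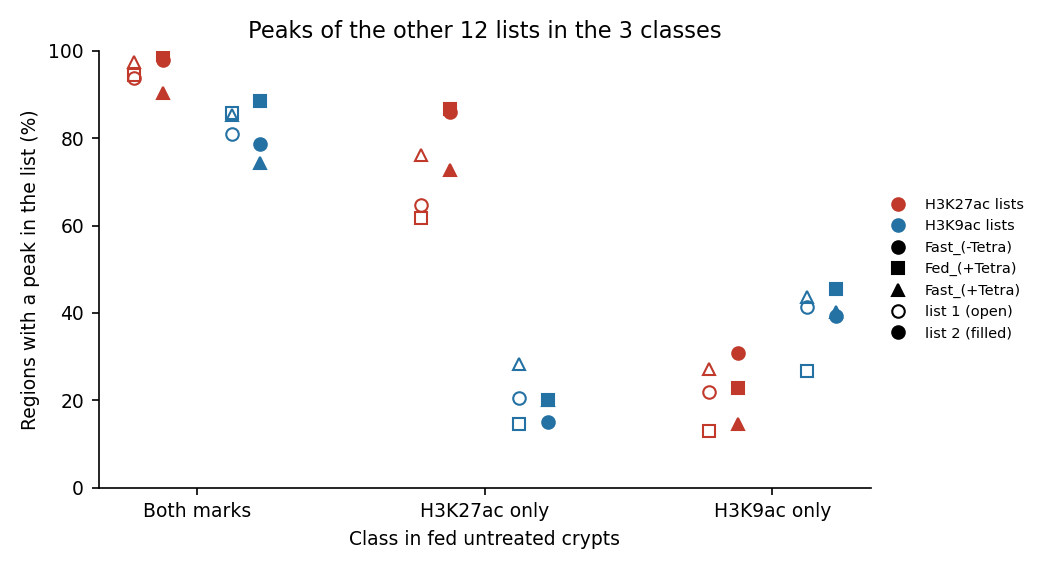
Each point is the percentage of a class of regions that met a peak in 1 of the 12 lists of the other conditions, in red for H3K27ac and blue for H3K9ac lists, with symbols for condition and list number. The red and blue points stand apart for H3K27ac only (61.7% or more against 28.3% or less) and overlap for H3K9ac only.

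At the extreme, 856 regions (8.32% of H3K27ac only) had H3K27ac in all 8 lists of the series and H3K9ac in none. Of these 26 lay at gene ends, 364 inside genes and 466 between genes, with a median distance of 22.3 kb. The highest-ranked lay at chromosome 4 from 55858906 to 55860683, 326431 bp from Klf4, a transcription factor of differentiating epithelium, with peaks of 1395 and 1568 bp in the fed untreated lists. The opposite pattern, H3K9ac in all 8 lists and H3K27ac in none, was found at 9 regions. None of the 9 was at a gene end. They lay within Acacb, Auts2, Prkdc, Plxdc2, Ybx3, Sepsecs, Fam227b and Lipc, and 1 lay 29693 bp from Pard6b. They were singled out after their values were seen.

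The strongest distant regions of each class were inspected. With H3K9ac only, the region in Acacb, which encodes a carboxylase that makes malonyl-CoA, spanned chromosome 5 from 114172833 to 114173709, and its peaks ranked at the 99.99 and 99.94 percentile of H3K9ac lists 1 and 2. The region in Auts2 (chromosome 5, 131519457 to 131519946) ranked at 99.89 and 95.65, and that in Prkdc, the gene of a DNA repair kinase (chromosome 16, 15642650 to 15643022), at 99.66 and 94.72. All 3 were met by 6 of 6 other H3K9ac lists and by none of H3K27ac. With H3K27ac only, the leading region lay at chromosome 4 from 58713736 to 58715231, 69548 bp from Olfr267, and ranked at 98.55 and 99.79. Those nearest Ttc7b (chromosome 12, 100280679 to 100284581) and Metrnl (chromosome 11, 121740564 to 121742562) followed. The 3 were met by all 6 other H3K27ac lists and by 1, 2 and 2 H3K9ac lists.

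The distant regions with both marks and the highest scores lay between genes. They were at chromosome 1 from 195241209 to 195242084, at chromosome 19 from 61266247 to 61267406 and at chromosome 4 from 88640612 to 88641749, with nearest genes Cr2, Csf2ra and Ifna13. Their widths were 876, 1160 and 1138 bp, and all 12 other lists had a peak at each. Their ranks lay above the 98 percentile in all 4 lists. In H3K27ac list 2, 1674 peaks had a score of 3100 or more and many were tied, so its highest percentile for a named feature often stood at 98.10.

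The number of H3K27ac-only regions nearest to a gene varied; the spacing of genes was not accounted for. The 9600 regions away from gene ends were nearest to a gene with both marks at its ends in 58.1% of cases, against 53.8% for distant regions with both marks, 57.7% for distant regions with both marks in part of the lists and 38.0% for distant H3K9ac-only regions. In all, 5014 genes had at least 1 H3K27ac-only region nearest to them, with a median of 1, and 400 had 5 or more. Sgms1, a sphingomyelin synthase gene, Tbl1xr1, a subunit gene of the NCoR corepressor complex, and Zfp386 each had 17. Peli1, a ubiquitin ligase gene, had 15, and Atp2b1, Nrip1 and Tcf7l2 had 14 each. Tcf7l2 encodes the main TCF factor of Wnt signalling in crypts, and its gene ends were marked in both H3K27ac lists and 1 H3K9ac list, whereas the other 6 genes carried both marks in all 4 lists.

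Genes were classed by the peaks within 1 kb of either end. Both marks were found at 7670 of 21887 genes (35.0%), H3K27ac only at 346 (1.58%) and H3K9ac only at 185 (0.845%). No list marked 9135 genes. With the top 17249 peaks of each list the counts were 5353, 201 and 1242, so the order of the classes with 1 mark turned round. In the other conditions 280 of the 346 genes were marked in more H3K27ac than H3K9ac lists and 33 in fewer. Of the 185 genes, 129 were marked in more H3K9ac lists and 34 in fewer. Genes outside these classes leaned too. Of the 7670 genes with both marks, 2782 were marked in more H3K27ac lists and 696 in fewer. Of the 9135 genes in no fed untreated list, 3233 were marked in more H3K9ac lists and 585 in fewer. A lean towards H3K9ac was therefore not particular to the 185.

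Genes with both marks and the highest scores were Leng8, Slc25a3, Kmt2e, Zfp36, Efcab2, Rab30, Spint1 and Lrrc41. Slc25a3 (chromosome 10, 91116574 to 91124046), the mitochondrial phosphate carrier, had peaks of 1843 and 1924 bp for H3K27ac and 1688 and 2640 bp for H3K9ac. Zfp36 (chromosome 7, 28376784 to 28379228), whose protein promotes decay of AU-rich mRNAs, had 12857 and 8307 bp for H3K27ac and 4639 and 6167 bp for H3K9ac, so its H3K27ac peaks were the wider in both lists. Spint1, an inhibitor of epithelial serine proteases, had 4221 and 5342 bp against 4061 and 5611 bp, where the marks interleaved. Kmt2e, a SET-domain chromatin protein gene, had 3799 and 3848 bp against 3563 and 4004 bp. All 8 genes were marked in each of the 12 other lists.

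The leading genes with H3K27ac only were held there by their outer ends. Ldha (chromosome 7, 46842274 to 46855627), lactate dehydrogenase A, had H3K27ac peaks of 3440 and 5287 bp near an outer end of the gene model and no H3K9ac peak there, but the start site whose sequence is printed above carried both marks. The same held for BC016579. Ccdc63 followed, with 2096 and 2571 bp. Ugt1a10, Ugt1a2, Ugt1a5, Ugt1a6a and Ugt1a6b, genes of enzymes that attach glucuronic acid to compounds such as drugs, share their last exons. All 5 took their place from 1 shared peak of 2037 and 1937 bp. Of the 346 genes, 277 had a start site in the reference. At that start 155 carried H3K27ac only, 18 both marks and 67 no peak.

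Genes with H3K9ac only were more often so at the start site itself. The leading genes were Med30, a Mediator subunit gene, Nkapl, Ext2, a glycosyltransferase gene of heparan sulfate, Tma16, Ccnj, Alms1, a centrosome gene, Reps1 and Alg3, a mannosyltransferase gene of N-glycosylation. Med30 (chromosome 15, 52712445 to 52730431) had H3K9ac peaks of 1244 and 995 bp at the 93.41 and 89.21 percentile. Nkapl had 941 and 823 bp and Ext2 1250 and 1380 bp. Among the 12 other lists, Nkapl was marked in all 6 of H3K9ac and 5 of H3K27ac, and Alms1 in 6 and 2. H3K27ac was thus absent from these genes in the fed untreated lists and present in between 2 and 5 of the 6 other H3K27ac lists for all 8. Of the 185 genes, 151 had a start in the reference, and 129 of these carried H3K9ac only there.

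The sequence at the start differed between the classes, and sequence had no part in the rule. The observed count of CG over that expected from base content had a median of 0.81 at the 6233 starts with both marks, 0.37 at the 211 with H3K27ac only and 0.73 at the 151 with H3K9ac only, beside 0.24 at the 7661 without a peak. A ratio above 0.6, a usual mark of CpG islands, was reached by 81.4%, 34.1%, 70.2% and 17.9%, and by 48.4% of all 17492. Among the sequences printed above, Leng8 had 1.04, Ext2 0.71, Ugt1a9 0.23 and Celf3 0.20, while E2f1 reached 1.08 although it carried H3K27ac only. Start sites with H3K9ac only therefore lay near those with both marks in this feature, and those with H3K27ac only lay between them and unmarked starts. The 2111 starts with both marks in part of the lists had a median of 0.72 (65.6% above 0.6), close to H3K9ac only. The 1125 starts seen in 1 list had 0.48 (40.0%), so an intermediate value was not particular to H3K27ac only.

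Short motifs were searched on both strands of the 300 bases. GGGCGGG, the core bound by Sp and Klf factors, was found in 52.2% of starts with both marks, 27% with H3K27ac only, 45% with H3K9ac only and 34% of all. CCGGAAG, an ETS core, was found in 22.1%, 11.4%, 14.6% and 11.9%. TGANTCA, which includes the AP-1 core, was found in 4.38%, 11.8%, 2.65% and 7.03%, and TATAAA in 5.97%, 11.8%, 6.62% and 13.3%. AGATAA, bound by GATA factors, was found in 5.65%, 12.8%, 7.28% and 9.94%, and TTTATGG, a Cdx core, in 1.32%, 3.79%, 1.32% and 2.31%. The CG-rich cores hold CG or GC pairs themselves and so follow base content, and a match describes letters, not binding. Among the motifs given here, part of the 11 searched, starts with H3K27ac only had the AT-rich ones more often than starts with both marks. They had the GC-rich ones less often. Starts without a peak had these AT-rich motifs in 9.83%, 21.0%, 14.4% and 3.15%, in the order given. The excess over starts with both marks was thus not particular to H3K27ac only. Of the motifs not given, CAAAGTC was more frequent with H3K27ac only (5.69% against 3.66%). By contrast, CCAAT was less frequent (38.4% against 40.3%), as was AAGATGG (5.21% against 7.86%).

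The other conditions gave the same order of classes with a smaller gap. Start sites with H3K27ac only had a CG ratio above 0.6 in 51.7% of 420 in Fast_(+Tetra), 51.5% of 495 in Fast_(-Tetra) and 45.1% of 233 in Fed_(+Tetra). Those with H3K9ac only had it in 58.9% of 270, 65.7% of 198 and 64.0% of 150, and those with both marks in 79.3% to 80.9%. When starts that belonged to the same class in the fed untreated lists were left out, H3K27ac only gave 49.2% to 54.7% and H3K9ac only 57.5% to 65.8%. Both marks then gave 66.3% to 71.4%, and in Fast_(-Tetra) stood close to H3K9ac only, at 67.0% against 65.8%. The fed untreated value of 34.1% for H3K27ac only lay below all 3. These are shares of genes in 1 sample per mark and condition, and they were not tested.

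Gene lists were read against the 35.0% of all genes with both marks. The lists were chosen with earlier results of these data known. Enterocyte genes carried both marks in 13 of 15 cases, including Fabp1, a fatty acid binding protein gene, and Alpi, intestinal alkaline phosphatase. Fabp1 had H3K27ac peaks of 907 and 1567 bp and H3K9ac peaks of 660 and 3224 bp. General epithelial genes carried both in 12 of 15, among them Epcam, Cdh1 and Krt8, while Ehf, an ETS factor, had H3K27ac only (469 and 749 bp) and Tjp1 had no peak at its outer ends.

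Transcription factors of the intestine carried both marks in 12 of 18. Cdx2, the homeobox factor that sets intestinal identity, had H3K27ac peaks of 3920 and 2099 bp and H3K9ac peaks of 3504 and 7378 bp. Hnf4a, a nuclear receptor of enterocytes, had H3K27ac in both lists (2561 and 2956 bp) and H3K9ac in list 2 (2212 bp), as had Hnf4g, Nr5a2 and Tcf7l2 by count of lists. Atoh1, the factor that commits cells to the secretory lineage, had H3K27ac only, with weak peaks of 594 and 764 bp at the 1.94 and 29.98 percentile. In the other conditions Atoh1 was marked in 4 H3K27ac and 2 H3K9ac lists.

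Genes of the cell cycle and replication carried both marks in 12 of 25, among them Pcna, Plk1 and Ccnb1. Mcm2, Cdc6 and E2f1, which act in licensing replication origins and in entry into S phase, had H3K27ac only, with peaks of 965 and 779 bp, 858 and 996 bp, and 765 and 562 bp. These 3 make 12% of the list against 1.58% of all genes, and in the other conditions they were marked in 3 or 4 of 6 H3K9ac lists and 5 or 6 of 6 H3K27ac lists. Mki67, the proliferation marker, had H3K27ac in both lists and H3K9ac in list 2, as had Cdc20, Rrm1 and Cdt1. Other members of the list went the other way. Mcm3, Tyms and Bub1 were marked in H3K9ac list 2 alone, and Mcm5 and Cdk1 in both H3K9ac lists and H3K27ac list 2. Rrm2 was marked in list 2 of each mark. Housekeeping genes carried both marks in 17 of 20, with Actb and Gapdh marked in all 16 lists of the series.

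Of 15 stem cell genes, 3 carried both marks in all 4 lists (20% against 35.0% of all genes), and 4 were in no list (26.7% against 41.7%). Sox9, Rnf43 and Znrf3 carried both marks, Tnfrsf19 had H3K9ac only (608 and 820 bp) and 7 were marked in part. Lgr5, Ascl2, Axin2 and Msi1 were those without a peak at their outer ends. Olfm4 was marked in list 2 of each mark. Wnt pathway genes carried both marks in 8 of 20, among them Apc, Fzd5 and Myc. The gene-end rule reads the outer ends of a gene, so a mark at an inner start is not counted.

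Genes of the secretory lineages carried both marks in few cases. No Paneth gene of 9 carried both marks, and Lyz1, lysozyme, was marked in list 2 of each mark with peaks of 561 and 353 bp. Goblet genes carried both in 2 of 10 (Creb3l1 and Galnt12), and Muc2 was unmarked. Enteroendocrine genes carried both in 2 of 14 (Gip and Sct). Within 1 kb of the start site in the reference, however, Gip had no peak of any list and Sct had both marks in part of the lists. No tuft cell gene of 10 carried both, and none was marked in an H3K27ac list, while 3 were marked in H3K9ac list 2.

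No stromal or endothelial gene of 17, neural gene of 10 or gene of other tissues of 15 carried both marks in all 4 lists. Immune genes reached both marks in 0 of 15. Of the 15, 6 and 8 were marked in H3K27ac lists 1 and 2, which marked 44.6% and 49.9% of all genes. In H3K9ac lists 1 and 2, which marked 41.1% and 51.7% of all genes, 4 and 3 of the 15 were marked. Cd3e, Cd3g, Cd8a and Gzma, genes of T cells, Nkg7 and Cd79a each had H3K27ac in both lists and H3K9ac in 1. Cd79a had no peak of any of the 4 lists within 1 kb of its start site in the reference. Among the 346 genes with H3K27ac only, Cd3d, Il2rb, Il2rg, Prf1, Itgb2, Tigit, Cd7, Ccr9, Was, Sash3, H2-Ab1 and H2-Eb1 are known from lymphocytes or antigen presentation and were singled out after their values were seen. Of the 15 immune genes listed, 0 fell in the class with H3K27ac only. Cd3d had H3K27ac peaks of 2014 and 747 bp and was met by 4 H3K27ac and 1 H3K9ac lists elsewhere, whereas Ccr9 was met by 2 and 3, H2-Ab1 by 1 and 2 and Sash3 by 1 and 2. What part immune cells had in the class was not tested.

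Enzymes that write, erase or read histone acetylation carried both marks in 19 of 30, among them Ep300, Crebbp, Kat2b and Hdac1 to Hdac3, and Kat2a was marked in H3K9ac list 2 alone. Genes of fasting metabolism and PPAR targets carried both in 13 of 18 in these fed mice. Cpt1a, the gatekeeper of fatty acid oxidation, had H3K27ac peaks of 3355 and 8031 bp and H3K9ac peaks of 3045 and 4859 bp. Pdk4 and Ppara carried both marks, and Fgf21 and Ppargc1a were marked in 1 list each.

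Families taken by symbol spanned the whole range. Both marks were found at 68 of 84 cytosolic ribosomal protein genes, 58 of 78 mitochondrial ribosomal protein genes and 33 of 40 Nduf genes of respiratory complex I. They were found at 178 of 397 Zfp genes, 152 of 375 solute carriers, 9 of 37 claudins, 13 of 99 cytochromes P450 and 5 of 53 keratins. No Hox gene of 39 and no olfactory receptor of 1110 had both, and 1067 of the olfactory receptors had no peak. H3K9ac only was found at 11 Zfp genes (2.77% of the family, against 0.845% of all genes) and H3K27ac only at 2. H3K9ac only was found at 1.19% of cytosolic ribosomal, 2.56% of mitochondrial ribosomal and 2.5% of Nduf genes, against 0.845% of all genes. These were 4 genes in all. H3K27ac only, found at 1.58% of all genes, was found at none of the 3 families. Such small counts set no contrast between the marks.

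**Figure D5:**
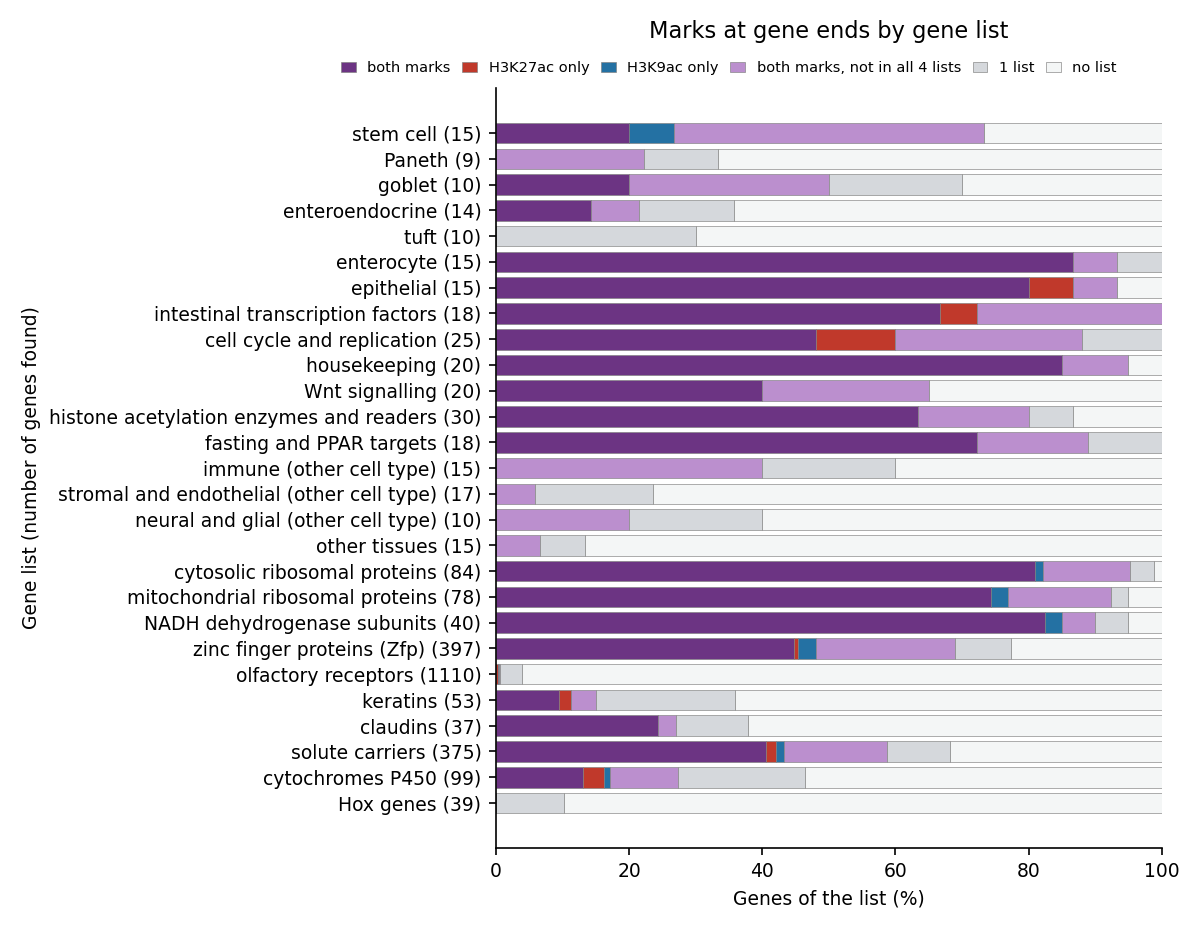
Each bar divides the genes of a list, with the number found in brackets, into those with both marks, H3K27ac only, H3K9ac only, both marks in part of the lists, 1 list and no list, in percent. Enterocyte, epithelial, housekeeping and ribosomal lists lie mostly in the class with both marks, and Paneth, tuft, stromal, neural and olfactory lists hold none or almost none.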

How the data were processed

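The authors deposited 2 peak lists per sample, each row with a chromosome, start, end, a MACS name and a score whose unit is not stated; scores were at least 50. Per the submitters' processing notes, FastQC, Bowtie and SAMtools were used with mm10, whose chromosomes are those of GRCm38. The MACS version and threshold, the use of IgG libraries and the depth are not given in the sources used here; the lists are called downsampled. The score served only to rank peaks within a list. Genes were 21887 protein-coding genes of RefSeq GRCm38.p6, counted as marked with a peak no further than 1 kb from an end. Promoter sequences were found for 17492 of them, 1 start each, with 10583 at the outermost end. Coordinates count from 1.

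Lists were the unit of spread, in two-sided exact permutation tests with Benjamini-Hochberg adjustment over 6 tests. Named genes were the 8 highest by mean score percentile in each class (predicted symbols left out), fixed cell type and pathway genes, and 1-mark members of the lists; named regions were the 3 highest or widest. Members, lists and rules were chosen with earlier results of these data known. Alternatives changed the score threshold, number of peaks, minimum width, overlap, gap, window, start sites, sequences and list. Counting was tested on simulated lists. The tools were scipy 1.17.1, pandas 2.3.3, numpy 2.4.6 and matplotlib 3.10.9 under Python 3.11.15.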

Additional observations from a re-analysis of the deposited data

How the results depend on the processing

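Outside the settings that leave out a list number, 5 values of the main comparisons reversed, 27 counts or shares moved beyond 1.5 times (counts) or the counting interval (shares), and 82 did neither. For differences and ratios among the 82 this means direction and side of 0.05 only, and some moved by over 1.5 times: in the fed untreated lists the gene-end difference was -18.4 points with the upper 0.5 by score. With the upper 0.5 of each list by score, regions numbered 5622 with both marks (80.2% at gene ends) and 4727 with H3K27ac only (8.14%). The gene-end share of H3K9ac only was then 78.1%, with 488 genes. With 17249 top-scoring peaks in every list, regions numbered 6105 with both marks (74.3% at gene ends), 3738 with H3K27ac only (7.60%) and 1554 with H3K9ac only (74.9%), and genes 201 with H3K27ac only and 1242 with H3K9ac only. Peak number could not differ by construction, with a log2 ratio of 0 in both comparisons, and the gene-end share in the other conditions became -1.19 points (exact permutation p = 0.71). With peaks of at least 500 bp, the other conditions gave a log2 ratio of peak number of 0.64 and a gene-end difference of -10.1 points (exact permutation p = 0.019 for each, unadjusted), both opposite in sign to the values over all peaks; the cause was not tested. Gene-end shares were then 73.7% for both marks and 51.3% for H3K9ac only. Bridging gaps of 500 bp gave 72.7% for both marks and 6.13% for H3K27ac only, and a 2.5 kb window 75.7%, 13.4% and 46.6% for both marks, H3K27ac only and H3K9ac only. Start sites alone gave 59.9%, 2.95% and 30.5%, with 211 genes of H3K27ac only; of the 8 named genes of each class, 5 of both marks and 0 of H3K27ac only stayed in it. Of those with both marks 3 had no start in the reference; of those with H3K27ac only 2 had none, and 6 had a start in another class. Requiring no H3K9ac peak within 5 kb left 5347 regions with H3K27ac only, and 22669 regions had at least 1 list of each mark.

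Leaving out the lists of 1 number left 1 list per mark and condition, so the classes grow by construction and no test could go below 0.25. Over the 2 choices, regions with both marks ranged from 10899 to 20711 (44.1% to 64.7% at gene ends), H3K27ac only from 25037 to 25967 (7.82% to 10.9%) and H3K9ac only from 5691 to 28914 (8.35% to 20.3%). Genes ranged from 1048 to 1740 with H3K27ac only and from 985 to 1442 with H3K9ac only. In the other conditions the log2 ratios ran from 0.30 to 0.83 for covered length and from 0.52 to 1.12 for width, and the recurrence differences from 37.7 to 51.8 points for H3K27ac only and from 0.92 to 3.20 for H3K9ac only. In the fed untreated lists peak number ran from -0.12 to 1.08 and gene-end share from -21.4 to 0.87 points, both reversed without lists 1.

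With the list number as a replicate block, pairing lists of the same number in the other conditions, the differences are the same by construction: -0.17 for peak number, 0.56 for covered length, 1.41 points, 0.82 for width, 54.9 and 17.6 points. The exact sign-flip permutation p was 0.031, the smallest possible, for covered length, width and both recurrences. The numbers stand only in the names of the lists, and whether they pair mice is not said. Depth is unknown, so a mark called absent may lie under the detection limit of a list.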

Other observations

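Solute carriers had H3K27ac only in 6 of 375 cases, 1.60% and so at the 1.58% of all genes. Among them was Slc10a2, the bile acid transporter gene of the ileum, with peaks of 663 and 584 bp. It was met by 4 of the 6 other H3K27ac lists and by none of H3K9ac. Of 99 cytochrome P450 genes 3 had H3K27ac only (Cyp2j9, Cyp4b1 and Cyp2c65), which is 3.03% of the family against 1.58% of all genes. Cyp2c65 had peaks of 753 and 593 bp and was met by 5 H3K27ac and 3 H3K9ac lists of the other conditions. The H3K9ac-only members of the ribosomal and complex I families were Rpl6, Mrps25, Mrps18a and Ndufa1. These genes were chosen after their values were seen.

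The widest region with H3K27ac only spanned 22198 bp at chromosome 11 from 3123089 to 3145286, at an end of Sfi1, with peaks summing to 8971 bp in list 1 and 20561 bp in list 2. The other conditions had an H3K27ac peak there in 6 of 6 lists and an H3K9ac peak in 3 of 6. As no set of artefact-prone regions was removed, whether this is such a region was not tested. The next widest, 6764 bp within Cd82, had no H3K9ac peak in the fed untreated lists and was met by all 6 H3K9ac lists of the other conditions.

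Of the regions with H3K27ac only, 48.0% had an H3K9ac peak of some list within 5 kb and 17.2% a region with both marks. For H3K9ac only, 31.0% had an H3K27ac peak within 5 kb and 11.8% a region with both marks.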
